A study of Mus musculus with 4 samples.

Results

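The Msx and Dlx homeobox genes were followed in mouse embryonic stem cells after 1 h of bone morphogenetic protein 2 (BMP-2). The 9 genes are Msx1, Msx2, Msx3, Dlx1, Dlx2, Dlx3, Dlx4, Dlx5 and Dlx6. Every probe set whose annotated symbol is exactly one of these was taken, which gave 13 probe sets (5 Msx and 8 Dlx) of the 45101 deposited. RNA came from E14Tg2A.4 cells, a subline of the embryonic stem cell line E14Tg2a, and was measured on 4 one-colour Affymetrix arrays. A first pair of arrays held RNA of cells given 25 ng/ml of BMP-2 during 1 h, and a second pair RNA of cells kept without it over an equal time. All of it thus comes from a single line at a single dose and time. Whether the replicates of a group were grown apart is not stated, and every p-value here reflects the scatter of these arrays, which could be technical only.

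Msx and Dlx proteins are homeodomain transcription factors that bind similar short AT-rich sites. MSX proteins mostly repress and DLX proteins mostly activate transcription, and pairs of them can counter each other. BMP ligands act through receptor kinases that phosphorylate SMAD1 and SMAD5, which enter the nucleus with SMAD4. Msx1 and Msx2 are known BMP targets in limb, tooth, neural crest and dorsal ectoderm, and several Dlx genes are known to respond to BMP in bone and ectoderm. Most of these settings arise from cells more advanced in development than embryonic stem cells. The comparison asked which of these genes differ already at 1 h.

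The 250 bases before the start of Msx1 and of Msx2 are shown because these genes had the smallest p-values among the members. They come from RefSeq on build GRCm38.p6, whose promoter table held 5 of the 9 genes (Msx1, Msx2, Msx3, Dlx1 and Dlx2). The sequences run 5′ to 3′ on the gene's strand. Capitals mark GTCT (the SMAD-binding core), GGCGCC or GGAGCC (GC-rich motifs of SMAD1 and SMAD5), TAATTA (a homeodomain motif) and CCAAT (a general promoter motif), each on either strand.
Msx1, chr5:37824586-37824835, minus strand: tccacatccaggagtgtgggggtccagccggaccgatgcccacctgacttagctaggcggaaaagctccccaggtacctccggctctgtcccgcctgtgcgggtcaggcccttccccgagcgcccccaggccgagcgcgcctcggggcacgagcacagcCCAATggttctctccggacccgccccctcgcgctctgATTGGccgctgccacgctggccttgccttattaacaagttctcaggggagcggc
Msx2, chr13:53472781-53473030, minus strand: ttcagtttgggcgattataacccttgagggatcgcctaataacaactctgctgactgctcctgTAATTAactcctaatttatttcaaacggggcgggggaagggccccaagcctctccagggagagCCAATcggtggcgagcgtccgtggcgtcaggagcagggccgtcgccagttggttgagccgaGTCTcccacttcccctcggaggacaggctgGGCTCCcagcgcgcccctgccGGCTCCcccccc
The Msx2 stretch held 1 match to GTCT, 2 to GGAGCC, 1 to TAATTA and 1 to CCAAT, none of which overlap. The Msx1 stretch held 2 matches to CCAAT and none to the other 4 motifs. Among the 32851 promoter stretches of the table, 82.9% held GTCT, 26.0% GGAGCC, 9.59% GGCGCC, 4.84% TAATTA and 33.8% CCAAT. Dlx2 held 1 GGCGCC and 2 GGAGCC but no GTCT, Dlx1 held 2 GTCT, and Msx3 held 3 GTCT with neither GC-rich motif. The 5 stretches held 16 to 24 CpG dinucleotides, against a median of 6 over the table. Matches are letters in a window and say nothing about whether a factor binds.

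The signals are MAS5 values on a linear scale, with array medians of 81.8 to 94.9 over all probe sets. On untreated replicate 2 the 3 probe sets for 18S ribosomal RNA read 3.94 to 6.11 times the highest other array. All 10 embryonic stem cell markers were bright enough to test, with a summed signal of 97392 and 102471 on the treated arrays and 97171 and 102499 on the untreated ones. A probe set was tested when its mean log2 signal exceeded 5.73 (a signal of 53.0), the 40th percentile of all probe sets other than controls. There were 27022 such probe sets.

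Brightness set how much could be seen of each member. Of the 13 probe sets 6 were tested (2 of Msx1, 1 of Msx2, 2 of Dlx3 and 1 of Dlx4) and 7 lay under the limit. Dlx4 1420595_at was just inside, with a geometric mean signal of 53.2, and Dlx2 1448877_at was the nearest outside, at 45.6. Signals exceeded the limit on all 4 arrays for 3 probe sets, namely both of Msx1 and Msx2 1449559_at. Olfactory receptor genes, which act in the nose, served as a second gauge. Of their 44 probe sets 12 (27.3%) also passed the limit, so passing it does not show that a gene is expressed. The 95th percentile of the 44 was 94.4 to 130 by array. Msx1 1448601_s_at and Msx2 1449559_at exceeded it on 4 arrays, Msx1 1417127_at on 3 and the other member probe sets on none. Probe sets differ in brightness at equal RNA, so a dim one does not show that a gene is silent, and levels of different genes are not compared here.

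**Figure D1:**
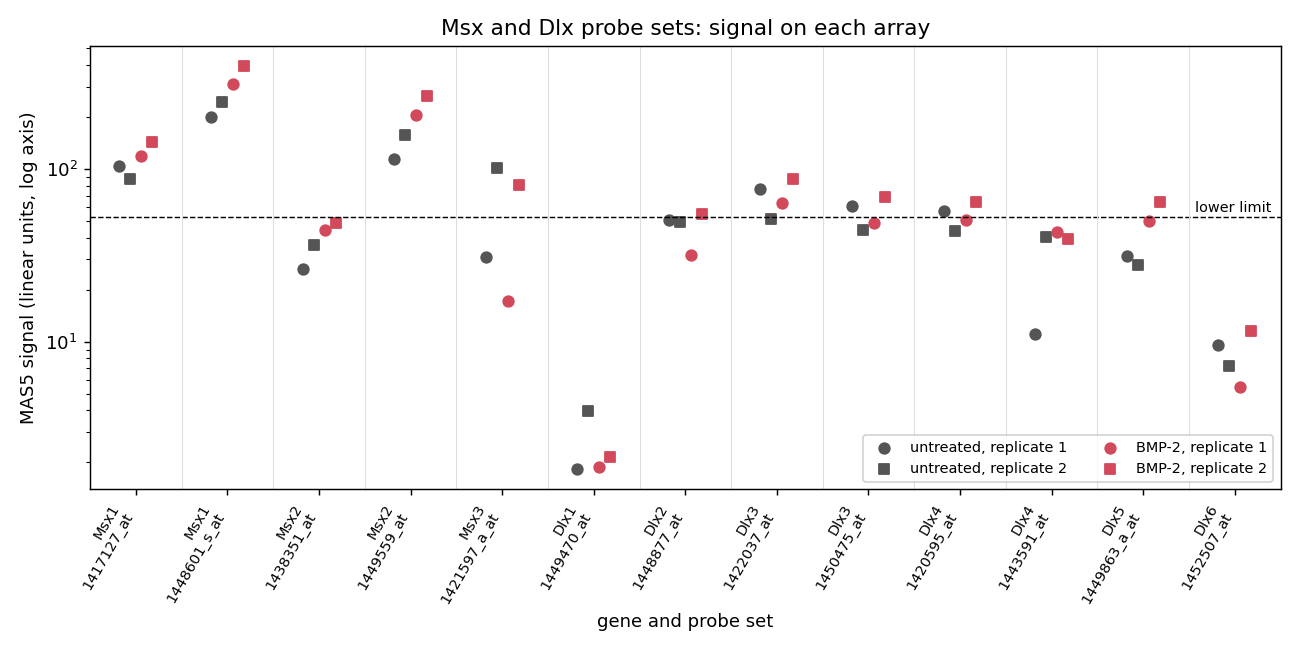
MAS5 signal (log axis) of the 13 Msx and Dlx probe sets on each of the 4 arrays. Grey points are untreated and red points BMP-2, circles replicate 1 and squares replicate 2, and the dashed line is the limit at a signal of 53.0. Both Msx1 probe sets and Msx2 1449559_at lie above the line on every array, with both red points above both grey ones.

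No Msx or Dlx probe set passed an adjusted p of 0.05 by limma (0 of 6). Among all tested probe sets 5 passed, or 0.0185%, all of them higher with BMP-2 (centring each array on its median gave 74 higher and 45 lower, and leaving out 1 array gave 16 to 141 in all). In a fit without the brightness limit 0 of the 13 member probe sets passed, where 0.00888% of all probe sets did. At an unadjusted p under 0.05, 2 of the 6 tested member probe sets were higher, Msx1 1448601_s_at and Msx2 1449559_at, where 1.91% of all tested probe sets were. Both treated signals lay above both untreated ones for 5 of the 13 member probe sets, 4 of Msx and 1 of Dlx, and for 14.7% of all probe sets. None of the 13 had both treated signals below both untreated ones, a pattern of 14.7% of all probe sets too. The smallest p that permuting the labels of 2 against 2 arrays can give is 0.333, so no permutation test was run for single genes.

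Msx1 is known for its role in tooth, palate and limb development. Its probe set 1448601_s_at, whose suffix marks probes that can match more than a single transcript, read 312 and 394 with BMP-2 and 201 and 245 without. The lower treated array stood above the higher untreated one, and within each group replicate 2 was the brighter. The treated mean was 353 ± 57.9 (SD, n = 2) and the untreated mean 223 ± 31.7. The difference was 0.66 ± 0.19 log2 (SE), or 1.58-fold with a 95% interval of 1.18 to 2.12 (limma adjusted p = 1.00). Between arrays of equal replicate number it was 0.64 log2 for replicate 1 and 0.68 log2 for replicate 2. Leaving out each array gave 0.49 to 0.83 log2, and the adjusted p ran from 0.170 to 1.00 over the alternatives.

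The other Msx1 probe set, 1417127_at, is annotated to the same transcript accession and was dimmer. It read 119 and 144 with BMP-2 and 104 and 87.3 without. The groups again did not overlap, but the treated and untreated arrays of replicate 1 were close. The difference was 0.46 ± 0.26 log2, or 1.37-fold (0.913 to 2.07, limma adjusted p = 1.00), an interval that includes no change. It was 0.19 log2 for replicate 1 and 0.72 log2 for replicate 2. Both Msx1 probe sets thus gave a difference of the same sign and overlapping intervals. The mean of both gave 0.56 log2.

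Msx2, known for its role in skull and hair follicle development, had the largest difference of the 6 tested member probe sets. Probe set 1449559_at read 205 and 265 with BMP-2 and 114 and 157 without. The groups did not overlap, and as for Msx1 replicate 2 was the brighter in each group. The treated mean was 235 ± 42.9 (SD, n = 2) and the untreated mean 135 ± 30.3. The difference was 0.80 ± 0.24 log2, or 1.74-fold (1.21 to 2.52, limma adjusted p = 1.00). It was 0.85 log2 for replicate 1 and 0.76 log2 for replicate 2. Leaving out each array gave 0.57 to 1.03 log2, and the adjusted p ran from 0.0694 to 1.00 over the alternatives.

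A second Msx2 probe set, 1438351_at, stayed under the limit on all 4 arrays. It read 44.5 and 48.6 with BMP-2 and 26.2 and 36.2 without, so its groups did not overlap either. Its difference in the fit without the limit was 0.59 ± 0.48 log2 (interval -0.52 to 1.71). With signals raised to the limit the fold was 1.00, which means that nothing of this difference lies above the limit.

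Msx3, whose expression is known mainly from the dorsal neural tube, showed no stable level on its single probe set. It read 17.1 and 80.9 with BMP-2 and 30.7 and 101 without. Both replicate 1 arrays were dim and both replicate 2 arrays bright, so the arrays differed more by replicate number than by treatment. The difference was -0.58 ± 0.83 log2 (interval -2.50 to 1.33) without the limit.

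The Dlx genes lie in 3 pairs, Dlx1 with Dlx2 on chromosome 2, Dlx3 with Dlx4 on chromosome 11 and Dlx5 with Dlx6 on chromosome 6. Of the 8 Dlx probe sets 3 were tested, all of the Dlx3 and Dlx4 pair, and their treated and untreated signals overlapped.

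Dlx3 is known for its role in epidermis, hair, tooth and placenta. Probe set 1422037_at read 63.7 and 87.9 with BMP-2 and 76.8 and 51.6 without, and 1450475_at read 48.7 and 69.2 against 61.4 and 44.3. On both, treated replicate 2 was highest and untreated replicate 1 came second. The differences were 0.25 ± 0.37 log2 (interval -0.58 to 1.08) and 0.16 ± 0.41 log2 (interval -0.77 to 1.08), each with a limma adjusted p of 1.00. For replicate 1 they were -0.27 and -0.33 log2, and for replicate 2 they were 0.77 and 0.65 log2. The sign thus differed between the replicate numbers, which are not taken to pair the samples. The interval does not exclude a difference as large as that of Msx1.

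Dlx4, the neighbour of Dlx3, gave a like picture on 1420595_at, which read 50.3 and 64.0 with BMP-2 and 56.7 and 44.0 without. The difference was 0.18 ± 0.41 log2 (interval -0.72 to 1.09, limma adjusted p = 1.00), with -0.17 log2 for replicate 1 and 0.54 log2 for replicate 2. The other Dlx4 probe set, 1443591_at, read 43.0 and 39.5 with BMP-2 and 11.1 and 40.6 without. Its difference of 0.95 ± 0.70 log2 rested on the single untreated array at 11.1. Without that array it was 0.02 log2, and every signal was under the limit.

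Dlx5, a known BMP-responsive gene of bone-forming cells, was the only Dlx gene whose groups did not overlap on a probe set. It read 49.7 and 64.1 with BMP-2 and 31.3 and 27.7 without. Both untreated arrays were under the limit, and only treated replicate 2 was above it. The treated mean was 56.9 ± 10.2 (SD, n = 2) and the untreated mean 29.5 ± 2.56. In the fit without the limit the difference was 0.94 ± 0.46 log2 (interval -0.13 to 2.01, limma adjusted p = 1.00). Leaving out each array gave 0.75 to 1.12 log2. With signals raised to the limit the fold was 1.10. The untreated level and treated replicate 1, all under the limit, thus set how much of the difference can be read.

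Dlx1 and Dlx6 lay far under the limit and gave no signal from which a response could be read. Dlx2 lay closer to the limit, at percentile 36.9 of brightness, and its treated and untreated signals overlapped. Dlx1 and Dlx2 are known for their role in forebrain interneurons. Dlx1 read 1.89 and 2.16 with BMP-2 and 1.83 and 3.95 without, at percentile 1.59 of brightness. Dlx2 read 31.8 and 54.7 with BMP-2 and 50.7 and 49.0 without, a difference of -0.26 ± 0.47 log2 in the fit without the limit. Dlx6, the partner of Dlx5, read 5.45 and 11.5 with BMP-2 and 9.56 and 7.22 without. Their 95% intervals spanned -2.32 to 1.49 log2 for Dlx1, -1.34 to 0.83 log2 for Dlx2 and -1.90 to 1.77 log2 for Dlx6, each on both sides of 0.

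**Figure D2:**
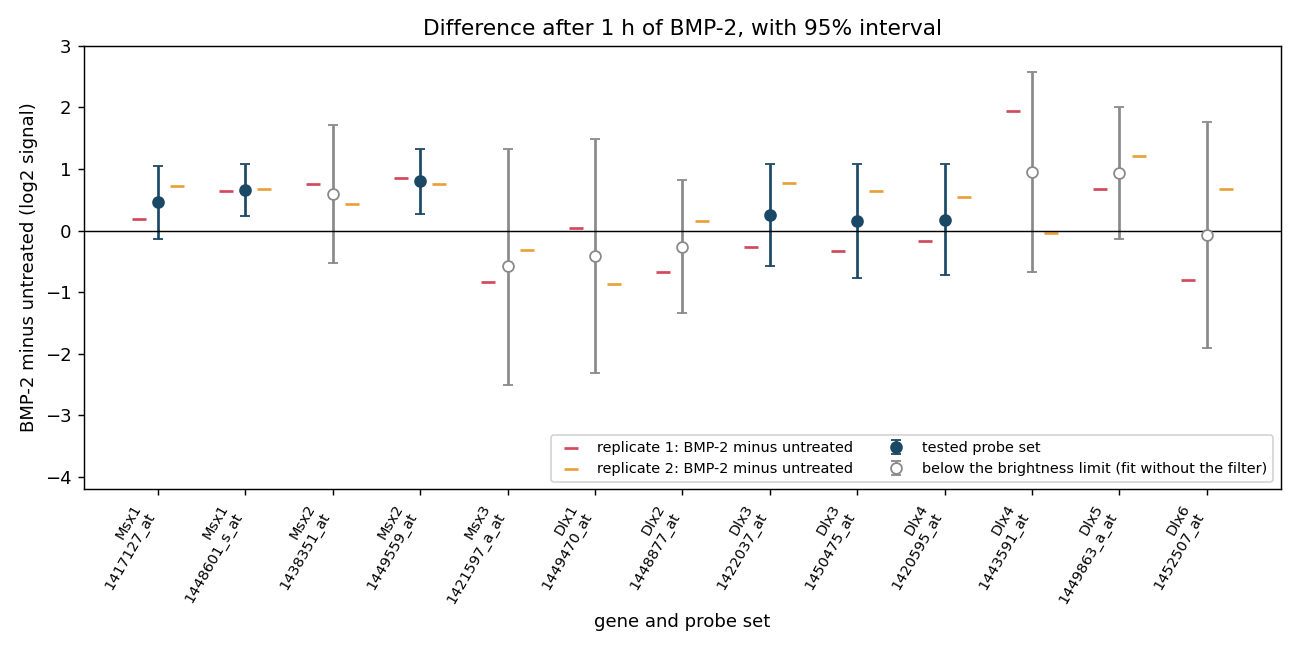
Difference in log2 signal, BMP-2 minus untreated, for each Msx and Dlx probe set, with its 95% interval. Filled points were tested, open points lie below the brightness limit, and short dashes give replicates 1 and 2 on their own. Msx1 1448601_s_at (0.66) and Msx2 1449559_at (0.80) are the tested probe sets whose interval lies above 0.

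Beside the known early BMP targets, the differences of the 3 tested Msx probe sets were smaller than those of Id1, Id2, Id3 and Smad6. They were above the median of that list. The list of 29 early BMP target genes, from which Msx and Dlx were left out, had 22 genes tested, of which 3 rose (Id1, Id2 and Id3), none fell and 19 did not pass. The difference was above 0 for 14 and below 0 for 8 of them, with a median of 0.17 log2, against 52.2% above 0 and a median of 0.008 log2 over all tested probe sets. Because the list was chosen with earlier results of these data known, this is a description and no test of a shift. Id1, an inhibitor of basic helix-loop-helix factors, read 9738 and 9495 with BMP-2 and 3129 and 3007 without (1.65 log2). Smad6, an inhibitory SMAD, read 386 and 435 against 171 and 168, a difference of 1.27 ± 0.17 log2 (limma adjusted p = 0.0620). Smad7, another inhibitory SMAD, differed by 0.66 ± 0.09 log2 (adjusted p = 0.0635), the value of the brighter Msx1 probe set with a smaller error. Bambi, a decoy receptor, differed by 0.59 ± 0.16 log2, Skil, a SMAD co-repressor, by 0.43 ± 0.08 log2, and Id4 by 0.78 ± 0.24 log2. In the 7 alternatives that kept all 4 arrays, Smad6 passed in 3, Smad7 and Id4 in 1 each, and Skil and Bambi in 0. The 3 tested Msx probe sets passed in 0 of those in which they were tested. Fits without 1 array leave a group of 1, whose spread is taken to equal that of the other group, and are not counted here.

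Setting each probe set against Id1 on the same array, a choice made after seeing the data, tested whether the Msx difference was smaller than that of Id1. It was smaller by 0.99 log2 for Msx1 1448601_s_at (difference -0.99, interval -1.46 to -0.51, limma adjusted p = 0.00151). For Msx2 1449559_at the value was -0.85 (interval -1.44 to -0.25, adjusted p = 0.0117), and for Msx1 1417127_at it was -1.19 (interval -1.82 to -0.56, adjusted p = 0.00249). Of all tested probe sets 98.9% differed from Id1 in this way, so the result is not particular to Msx. The Msx2 value did not pass without treated replicate 1 (-0.64, adjusted p = 0.0816) or without untreated replicate 2 (-0.59, adjusted p = 0.0654).

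**Figure D3:**
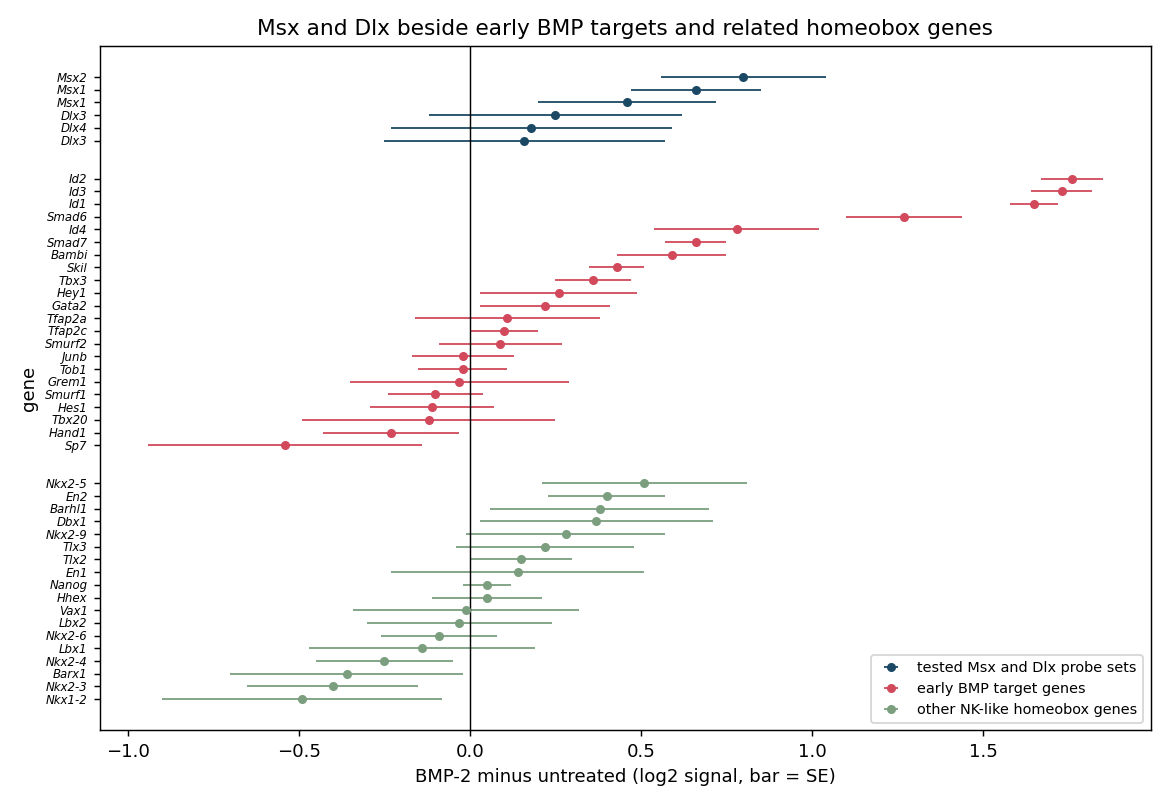
Difference in log2 signal, BMP-2 minus untreated, with its SE, for the 6 tested Msx and Dlx probe sets, 22 early BMP target genes and 18 other NK-like homeobox genes. Id1, Id2 and Id3 lie above 1.5, Smad6 at 1.27, and Msx1 and Msx2 at 0.46 to 0.80 beside Smad7, Bambi and Id4.

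The related homeobox genes of the NK-like class, the group that holds Msx and Dlx, did not pass. As background, 0.0185% of all 27022 tested probe sets passed and 829 had an unadjusted p under 0.05. Of 39 listed genes 18 were tested, 10 above 0 and 8 below 0, with a median of 0.05 log2, a range of -0.49 to 0.51 log2 and 1 at an unadjusted p under 0.05. That gene was En2, known from the midbrain and hindbrain, which read 314 and 385 with BMP-2 and 259 and 269 without (0.40 ± 0.17 log2, limma adjusted p = 1.00). Nkx2-5, a heart factor, differed by 0.51 ± 0.30 log2, while Nkx2-3 differed by -0.40 ± 0.25 log2 and Nkx2-4 by -0.25 ± 0.20 log2. Nanog, the pluripotency factor of this class, differed by 0.05 ± 0.07 log2.

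The genes next to the members on the chromosome did not pass, which is not particular to them. Of all 27022 tested probe sets 0.0185% passed and 829 had an unadjusted p under 0.05. The nearest gene on each side with a tested probe set gave 12 genes, of which 0 passed by limma and 0 had an unadjusted p under 0.05. Their differences ran from -0.55 to 0.24 log2. Stk32b and Stx18 flank Msx1, Sfxn1 and Gm2762 flank Msx2, and Zfp511 and Caly flank Msx3. Metap1d and Itga6 flank the Dlx1 and Dlx2 pair, Itga3 and Gm11515 the Dlx3 and Dlx4 pair, and Sem1 and Sdhaf3 the Dlx5 and Dlx6 pair. Stx18 differed by 0.01 log2 and Sfxn1 by -0.01 log2. The ends of the range were Caly at -0.55 ± 0.30 log2 and Gm11515 at 0.24 ± 0.39 log2.

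Markers of other cell types in which Msx and Dlx genes are expressed were set beside these values. Their counts past the threshold stand against 0.0185% of all tested probe sets. Of 11 trophectoderm markers 8 were tested and 0 passed, 2 of them above 0 and 6 below 0 with a median of -0.08 log2, with a summed signal over all 11 of 3473 and 3795 on the treated and 3512 to 3626 on the untreated arrays. The 3 untested ones lay under the brightness limit. Gata3 read 6.94 and 5.59 with BMP-2 against 3.63 and 1.94 without. Elf5 read 29.5 and 39.5 against 28.6 and 37.3, and Cdx2 56.5 and 88.8 against 32.2 and 48.7. Of 11 neural crest and surface ectoderm markers 6 were tested and 0 passed, 4 above 0 and 2 below 0 with a median of 0.08 log2. Their sums were 2135 and 2567 against 2205 and 2344. Of 10 fibroblast markers 2 were tested and 0 passed, 1 above 0 and 1 below 0, with sums of 615 and 760 against 652 and 659. Among those under the limit, Col1a1 read 30.8 and 48.7 with BMP-2 against 27.3 and 25.3 without. S100a4 read 28.1 and 30.6 against 15.9 and 15.7. Lum (0.25 log2), Pdgfra (0.21 log2), Dcn (0.18 log2) and Postn (1.16 log2) also lay above 0. Only Col3a1 (-0.07 log2) and Pdgfrb (-0.15 log2) lay below 0. No listed marker read 0, but olfactory receptor probe sets had a median signal of 18.9, so a signal above 0 does not show expression. The part of such cells in the Msx values was not tested, and in bulk RNA more cells of a type and more RNA per cell cannot be told apart.

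The genes most like Msx1 1448601_s_at over the 4 arrays were Rest, Camk2n2, Ociad2, Ercc8 and Pds5a. Their Euclidean distances in centred log2 signal were 0.022 to 0.079. The genes most like the brightest Dlx probe set, Dlx3 1422037_at, were Cyb5d2, Tial1, Hnf4a, Tmc8 and Hsf2, at 0.050 to 0.077. With 4 arrays and 27022 probe sets, near matches of this kind are a description of these arrays only.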

How the data were processed

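The deposited table holds 1 MAS5 signal per probe set and array, a linear intensity that the authors computed with MAS5 (submitters' processing notes). The sources used here give neither its version nor detection calls. Scaling acted on an array as a whole (the 2%-trimmed mean was 500 on each), and dim signals scatter widely once logged. Values were log2-transformed without pseudocount or further normalization, since array medians lay within 0.21 log2. After leaving out 64 control probe sets, those with a mean log2 signal above the 40th percentile were tested. The 2 groups were tested two-sided in limma 3.58.1 (R 4.3.3), using lmFit and eBayes with an intensity trend and no replicate block, with Benjamini-Hochberg adjustment over all 27022 tested probe sets. Residual degrees of freedom were 2 and prior ones 7.98. Members under the limit are given as signals, with differences from the same fit over all probe sets. List genes are represented by their brightest tested probe set. Named were all members, the early BMP targets past the threshold and those with the smallest p up to 8, 4 NK-like genes with the smallest p, chromosome neighbours, and the 5 nearest profiles for each family. Nanog, Cdx2 and other markers given by value, and the neighbours given by value, were picked after their values were seen. The members and lists were chosen with earlier results of these data known. The code was tested on simulated data. Alternatives were other filters (none, 60th percentile), quantile normalization, median centring, a pseudocount of 25.4, no trend, a replicate block, leaving out each array, signals raised to the limit, and averaging a gene's probe sets. Promoter sequences came from RefSeq (GRCm38.p6). The array values name no genome build.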

Additional observations from a re-analysis of the deposited data

How the results depend on the processing

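The number of Msx and Dlx probe sets past an adjusted p of 0.05 by limma was 0 in each of the 11 alternative settings, with 2 at an unadjusted p under 0.05 in the main setting, and the number of NK-like homeobox genes was 0 in each as well. Over all tested probe sets 5 passed, against 8 with the 60th percentile filter, 119 with median centring, 0 without the intensity trend (1023 at an unadjusted p under 0.05) and 93, 141, 38 and 16 without treated replicate 1, treated replicate 2, untreated replicate 1 and untreated replicate 2. Early BMP targets numbered 3, against 5 with median centring, 0 without the trend and, without those arrays in the same order, 5, 7, 5 and 3. The replicate block gave 11 probe sets overall (10 higher and 1 lower), 5 early targets and 0 members. Deviations of arrays with equal numbers correlated at r = 0.15 over tested probe sets, but with 2 pairs the numbers are not taken to pair the samples. The differences of all Msx1, Msx2, Dlx4 and Dlx5 probe sets kept their sign or reached 0 in the settings run. Leaving out an array changed the sign for Msx3 (-1.70 to 0.54 log2), Dlx1 (-0.97 to 0.14), Dlx2 (-0.65 to 0.14), Dlx6 (-0.61 to 0.47) and Dlx3 (-0.04 to 0.54 on 1422037_at and -0.10 to 0.41 on 1450475_at), and quantile normalization did so for Dlx6 (0.10). With signals raised to the limit, Dlx2 went from -0.26 to 0.02. Causes were not tested. A fit without 1 array leaves 1 array in a group, which is assumed to vary like the other group. Msx1 1448601_s_at and Msx2 1449559_at keep their folds when signals are raised to the limit.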

Other observations

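Some transcripts from the opposite strand of Dlx loci have probe sets, found in the annotation only after the members had been fixed. None was bright enough to be tested. Dlx1as read 3.62 and 1.79 with BMP-2 and 3.48 and 3.66 without. Dlx6os1, also called Evf2, read 9.24 and 23.7 against 8.19 and 12.4. Dlx6os2 read 15.4 and 5.42 against 6.05 and 7.10. Dlx4os read 10.4 and 86.5 with BMP-2 and 32.6 and 78.6 without, with both replicate 2 arrays above both replicate 1 arrays, as for Msx3. Treated and untreated signals overlapped for all of these.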
